A study of Homo sapiens with 12 samples.

Results

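The early growth response (EGR) transcription factors EGR1, EGR2, EGR3 and EGR4 and their corepressors NAB1 and NAB2 were followed in a human cell line stimulated with epidermal growth factor (EGF). The 6 genes were taken by symbol, through their Ensembl identifiers, from a table of 26058 genes. Of these 6 genes, 5 passed the filter on low values and were tested together with all 22067 genes that passed. EGR4 was too low for the test and is described by its reads.

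RNA from HEK293 cells, a line from human embryonic kidney, was sequenced after depletion of ribosomal RNA. Wild-type (WT) cells were set against an AMPK KO derivative, in which CRISPR had been used on PRKAA1 and PRKAA2, the genes of the alternative catalytic subunits of AMPK, a kinase that responds to low cellular energy. Whether the AMPK KO line was a single clone was not given in the sources used here, so the line and the knockout cannot be told apart. All cells were starved of serum for 24 h. Each line then received the solvent DMSO (0.025%) alone, DMSO for 20 min followed by EGF for 30 min (DMSO+EGF), or 25 µM cordycepin for 20 min followed by EGF for 30 min (cordycepin+EGF). No group received cordycepin without EGF. An effect of cordycepin on the level without EGF and one on the EGF response therefore cannot be told apart. For the cells without EGF the sources differ on the time with DMSO, 50 min in the label of each sample and 20 min in the treatment protocol, against 50 min in all for the other groups. Cordycepin is an adenosine analogue without the hydroxyl group from which an RNA chain is extended. The sources state EGF at 15, in nM in figure legends and in µM in the culture methods, and which holds is not known. Each of the 6 groups had 2 replicates, numbered 2 and 3. Replicate 1 was discarded by the authors as an outlier and was not analysed here.

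EGR proteins are zinc finger transcription factors that bind GC-rich sites. Their genes are immediate early genes: they are silent or low in resting cells and are transcribed within minutes of a growth factor signal, without new protein synthesis. The signal runs from the EGF receptor through RAS, RAF, MEK and ERK to the ternary complex factors (ELK1 and relatives), which sit with serum response factor (SRF) on CArG boxes in the promoters. CREB, bound at cyclic AMP response elements (CRE), is a further activator of such promoters. NAB1 and NAB2 have no DNA-binding domain of their own. They bind EGR1, EGR2 and EGR3 and recruit repressors such as the NuRD complex, and NAB2 is itself known as an EGR target, which makes it part of a negative feedback loop. EGR4 is not bound by the NAB proteins.

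The promoters are shown first because those of EGR1 and EGR2 share a pair of motifs. RefSeq windows (GRCh38.p14) were at hand for 5 of the 6 genes, 9 windows in all, and the 250 bases before each annotated start were searched on both strands. The canonical RefSeq starts of EGR2, EGR4, NAB1 and NAB2 lie inside the gene spans given below, so these windows are not all upstream of the gene. Bases in annotated exons numbered 0 in the EGR1 window, 7 in EGR2, 153 in EGR4, 90 in NAB1 and 71 in NAB2 (canonical starts). Capitals mark CArG boxes, CRE cores (TGACGT, or ACGTCA on the other strand) and EGR sites (GCGNGGGCG). The 250 bases before the EGR1 start, chr5:138465229-138465478 on the plus strand, were as follows.
EGR1: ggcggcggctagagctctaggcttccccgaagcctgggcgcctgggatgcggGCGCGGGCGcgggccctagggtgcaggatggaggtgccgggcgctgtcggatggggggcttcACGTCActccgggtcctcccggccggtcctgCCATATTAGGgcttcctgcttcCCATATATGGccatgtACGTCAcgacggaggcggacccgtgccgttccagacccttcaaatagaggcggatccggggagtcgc
This window held 2 CArG boxes, 105 to 96 and 83 to 74 bases before the start, 2 CRE cores and 1 EGR site. The window before the canonical EGR2 start, chr10:62816367-62816616 on the minus strand, held 1 CArG box at 71 to 62 and 1 CRE core at 55 to 50.
EGR2: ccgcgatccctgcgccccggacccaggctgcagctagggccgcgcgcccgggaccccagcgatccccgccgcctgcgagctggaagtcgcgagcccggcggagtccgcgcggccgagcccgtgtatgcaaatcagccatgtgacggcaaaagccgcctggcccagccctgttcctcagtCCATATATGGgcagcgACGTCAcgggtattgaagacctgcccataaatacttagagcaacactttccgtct
In both genes a CArG box with the same 10 letters was followed, after 6 bases, by a CRE core in the same orientation. Among all 34943 RefSeq windows of this length, 2 (0.00572%) held a CArG box with a CRE core at that spacing and orientation, those of EGR1 and EGR2. This pair was looked for after the sequences had been seen. A CArG box alone was in 1.16% of windows, 2 or more in 0.0315%, a CRE core in 7.09%, and both in 0.0773%.

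EGR4, NAB1 and NAB2 had no CArG box in their windows, and EGR3 had no entry. EGR4 had 2 CRE cores, shown with 30 bases each, chr2:73293709-73293738 and chr2:73293641-73293670 on the minus strand. The core nearer to the start lies inside the gene span given below.
EGR4, far: gcgacaacaacaACGTCAcagctcgagctt
EGR4, near: gtttgggcatttACGTCAcggcggcagggc
NAB2 and NAB1 had GC-rich windows (81.2% and 80.0% G or C, against 68.4% for EGR1) with EGR sites, which were found in 8.39% of all windows. NAB2 had 1 EGR site, 62 to 54 bases before its RefSeq start (chr12:57089042-57089071, plus strand), and NAB1 had 3, of which an overlapping pair is shown (chr2:190648846-190648875, plus strand). The NAB2 site and the NAB1 pair lie inside the gene spans given below.
NAB2: tgtgcgtcctGCGGGGGCGgaggcgcggag
NAB1: cagcggcCGCCCCCGCCCCCGCccggcggc
NAB2 also held 4 and NAB1 5 SP1 sites (GGGCGG, in 42.5% of windows). Of these SP1 sites, 1 in NAB2 and 4 in NAB1 overlapped EGR sites. The 2 other EGR2 starts had neither a CArG box nor a CRE core. A match of letters is a description of the window, and binding was not measured here.

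**Figure D1:**
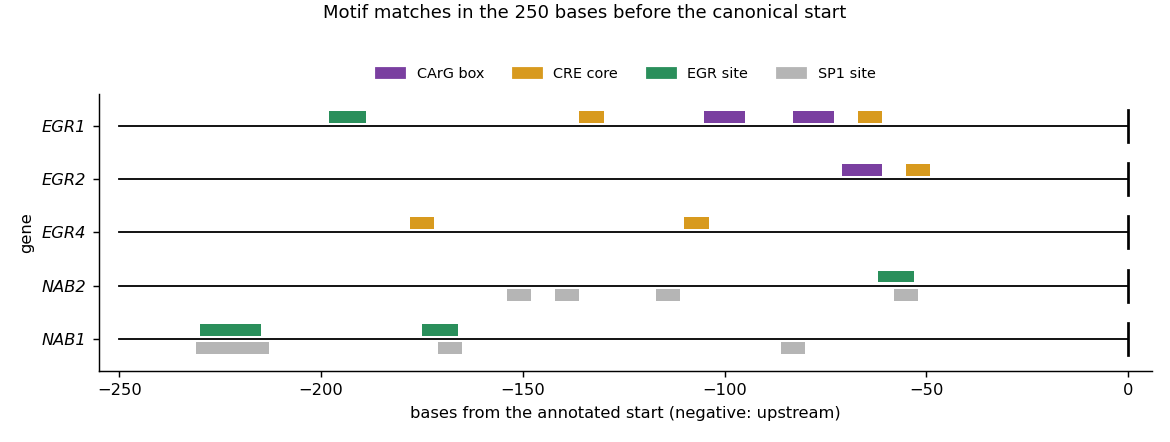
Matches to 4 motifs in the 250 bases before the canonical start of each gene, with position in bases on the horizontal axis, the start at 0 (thick tick), CArG boxes, CRE cores and EGR sites above the line and SP1 sites below it. EGR1 has 2 CArG boxes and EGR2 has 1, each of the nearer boxes followed after 6 bases by a CRE core, and the NAB windows hold EGR and SP1 sites instead.

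The libraries and the labels were checked before the members were compared. The values are RPKM, a read count scaled to gene length and library size, as deposited by the authors, and the reads behind them could be recovered for 96.3% of genes. Recovered reads ran from 3806335 in WT DMSO replicate 3 to 25104904, and the next lowest library had 12016743. Replicates of WT DMSO also agreed least, with r of 0.918 across genes against 0.961 to 0.977 in the other groups. PRKAA1 had 15.4 and 21.9 RPKM in the WT DMSO libraries and 7.37 and 7.62 RPKM in the AMPK KO DMSO libraries. PRKAA2 had 7.97 and 12.1 against 5.59 and 6.08 RPKM. Both transcripts were thus lower but present in the AMPK KO line in DMSO, and with cordycepin+EGF the lines overlapped for PRKAA2 (6.78 and 7.30 RPKM in WT, 5.39 and 7.43 in AMPK KO). Of 8 HEK293 markers all were listed, 6 of them at a mean of at least 1 RPKM (VIM, NEFL, INA, KRT8, KRT18 and CDH2), and their summed level was 119 to 182 RPKM over the 12 libraries. It was 119 to 125 RPKM in WT cordycepin+EGF against 160 to 166 in WT DMSO+EGF, and 122 to 177 against 163 to 173 RPKM in AMPK KO cells. All 6 tested HEK293 markers had lower values with cordycepin in both lines. Limma called 0 of them, against 0.00453% and 0.471% of all genes in WT and AMPK KO cells. Voom called 0, against 4.13% and 6.34%. At an unadjusted p under 0.05 there were 1 and 0, against 16.0% and 21.8% of all genes. Of 9 markers of other cell types 5 were listed and 1, GATA3, reached a mean of 1 RPKM, with summed levels of 5.83 to 8.18 RPKM. Their part in the results was not tested.

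EGF raised 3 of the 5 tested genes in WT cells, EGR1, EGR3 and EGR2, and 2, EGR1 and EGR3, in AMPK KO cells. Differences are on the log2(upper-quartile scaled RPKM + 0.5) scale, which understates the change of low genes. A gene was called at an adjusted p under 0.05 by the two-sided moderated test of limma with Benjamini-Hochberg adjustment over all 22067 genes, and 0.0227% of these were called in WT and 0.0136% in AMPK KO cells. Averaged over both lines the same 3 genes as in WT cells were called, against 0.0227% of all genes. The median log2 difference of the 5 genes was 1.75 in WT and 1.21 in AMPK KO cells, against 0.0162 and 0.00627 over all genes tested. NAB1 and NAB2 were not called in any of these comparisons. The p-values measure the spread between the libraries of this experiment. Since RNA was taken from whole cultures, fewer responding cells and less RNA per cell cannot be told apart.

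Cordycepin lowered EGR1, the 1 member called by limma. In WT cells EGR1 was the 1 of 5 called, and also the 1 gene called of all genes (0.00453%). In AMPK KO cells 0 of 5 were called by limma, against 0.471% of all genes. There, 2 of 5 had an unadjusted p under 0.05, against 21.8% of all genes, and voom on the recovered reads called 1 (EGR1), against 6.34% of all genes. Averaged over the lines 1 of 5, EGR1, was called (0.965% of all genes). The median log2 difference of the 5 genes was -0.35 in WT and -0.05 in AMPK KO cells, against 0.03 and 0.06 over all genes.

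With cordycepin+EGF the EGR genes still lay above DMSO. EGR1 and EGR3 were called higher in WT cells (2 of 5, against 0.068% of all genes) and EGR1, EGR3 and EGR2 in AMPK KO cells (3 of 5, against 0.358%). These comparisons share their DMSO libraries with the EGF comparisons and their cordycepin libraries with the cordycepin comparisons.

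**Figure D2:**
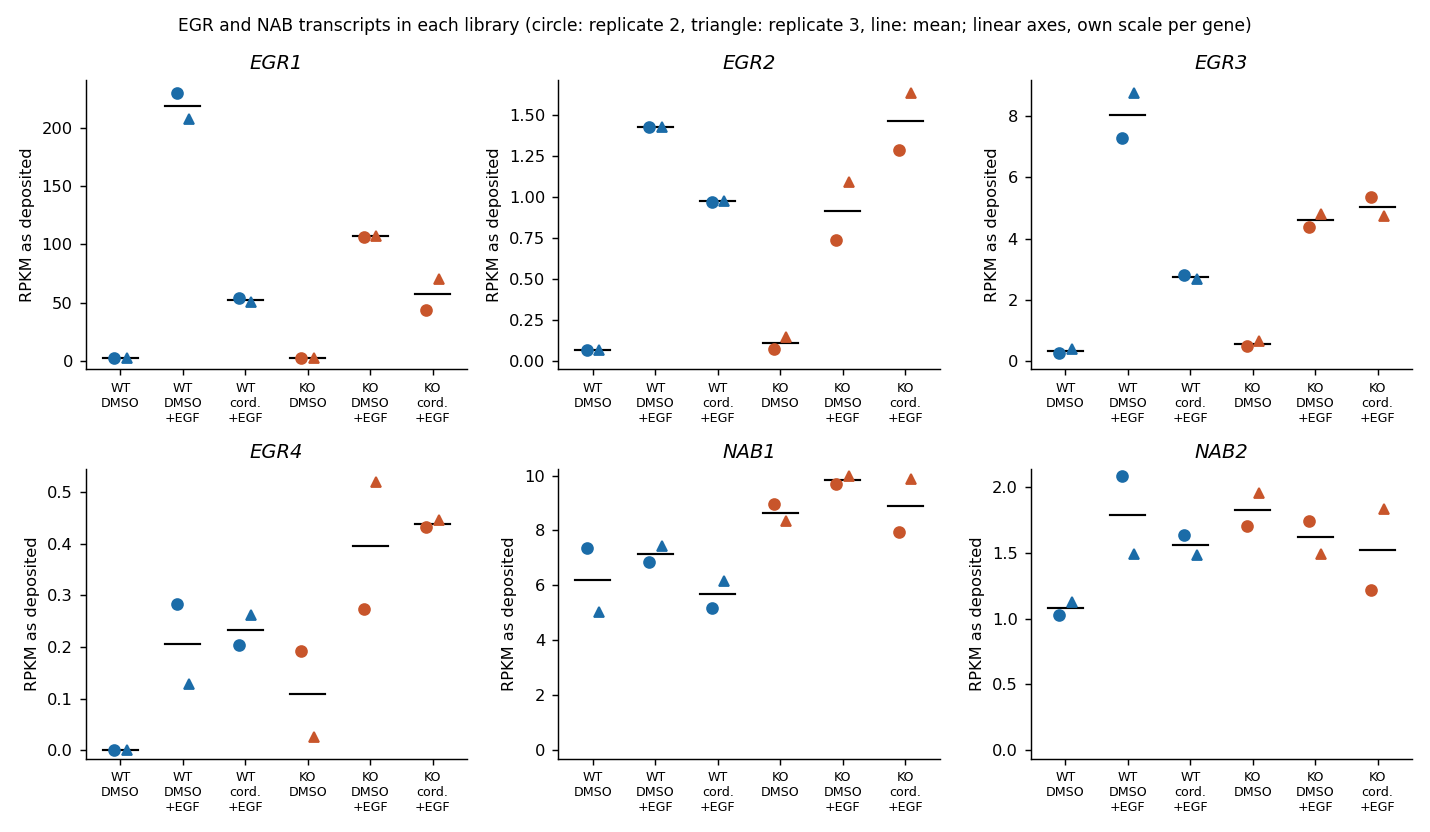
RPKM as deposited in each of the 12 libraries, by group, on a linear axis with its own scale for each gene (circle, replicate 2; triangle, replicate 3; line, mean of the 2). EGR1 goes from 2.51 RPKM in WT DMSO to 218.5 in WT DMSO+EGF, while NAB1 stays between 5.03 and 9.99 RPKM in all libraries.

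EGR1, the most studied member and a regulator of growth factor, cell cycle and matrix genes, was the most abundant EGR transcript per length in every library. EGR1 (ENSG00000120738) lies on GRCh38 chromosome 5, 138465479 to 138469303, plus strand, protein coding. In WT DMSO it had 2.64 and 2.38 RPKM (141 and 30 reads), in WT DMSO+EGF 229.7 and 207.3 RPKM (18270 and 10699 reads), and in WT cordycepin+EGF 53.8 and 50.9 RPKM. In AMPK KO cells it had 2.38 and 2.17 RPKM with DMSO, 106.5 and 106.9 RPKM with DMSO+EGF, and 44.01 and 69.96 RPKM with cordycepin+EGF. The 3 conditions did not overlap within either line. The DMSO levels of the lines overlapped, the DMSO+EGF level was higher in every WT than in every AMPK KO library, and the cordycepin+EGF levels overlapped between the lines.

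The EGF effect on EGR1 was a log2 difference of 6.16 (SE 0.186, adjusted p = 2.48e-06) in WT cells and 5.28 (SE 0.186, adjusted p = 9.73e-06) in AMPK KO cells, by limma. It was called under each of 12 alternatives and with each library left out, and without the shallow WT DMSO replicate 3 it was 6.09 in WT cells. With DMSO+EGF, EGR1 was lower in AMPK KO than in WT cells, by limma a log2 difference of -1.01 (SE 0.186, adjusted p = 0.0416). Of 5 members it was the 1 called in that comparison, against 1.74% of all genes. That call was lost without each of the 4 libraries in turn: the adjusted p was 0.226 and 0.263 without AMPK KO DMSO+EGF replicate 2 or 3, and 0.255 and 0.17 without WT DMSO+EGF replicate 2 or 3, with log2 differences of -0.93 to -1.10. Tested as a difference of EGF effects between the lines (AMPK KO minus WT), EGR1 had -0.88 on the log2 scale (SE 0.263), which did not pass limma adjustment over all genes (adjusted p = 0.569).

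Cordycepin lowered EGR1 in WT cells by a log2 difference of -2.005 (SE 0.186, limma adjusted p = 0.0439). This call rested on every library: without WT DMSO+EGF replicate 2 or 3 the adjusted p was 0.448 and 0.183, and without WT cordycepin+EGF replicate 2 or 3 it was 0.156 and 0.162, at log2 differences of -1.92 to -2.09. In AMPK KO cells the log2 difference was -0.89 (SE 0.186, adjusted p = 0.0644), and without AMPK KO cordycepin+EGF replicate 3, the higher of the pair, it was -1.21 (adjusted p = 0.0417). Over the 4 fits with a library left out it ran from -1.21 to -0.57 (adjusted p of 0.0417 to 0.297) and was called in 1. Averaged over the lines it was -1.45 (SE 0.132, adjusted p = 0.00461), and this call was kept under each of 12 alternatives and with each of the 8 libraries left out.

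**Figure D3:**
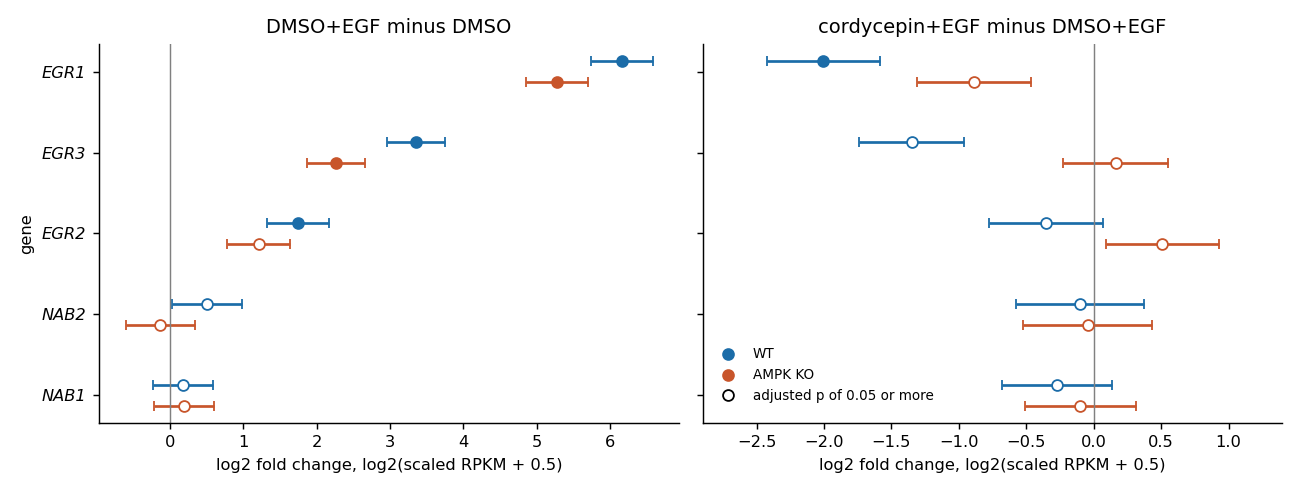
Log2 differences of the 5 tested genes on the log2(scaled RPKM + 0.5) scale with 95% intervals from limma, for DMSO+EGF minus DMSO (left) and cordycepin+EGF minus DMSO+EGF (right), in WT and AMPK KO cells; open points did not pass an adjusted p of 0.05. In WT cells cordycepin gives -2.005 for EGR1 and -1.35 for EGR3, and in AMPK KO cells -0.89 and 0.16.

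EGR3, a close relative of EGR1 known from muscle spindle development and lymphocytes, followed EGR1 in the EGF response and departed from it under cordycepin in AMPK KO cells. EGR3 (ENSG00000179388) lies on chromosome 8, 22687659 to 22693480, minus strand. Its WT levels were 0.245 and 0.395 RPKM with DMSO, 7.29 and 8.77 RPKM with DMSO+EGF, and 2.80 and 2.69 RPKM with cordycepin+EGF. The AMPK KO levels were 0.491 and 0.639, 4.38 and 4.82, and 5.35 and 4.74 RPKM in the same order. In WT cells the 3 conditions were apart, with cordycepin+EGF between DMSO and DMSO+EGF. For AMPK KO the DMSO+EGF and cordycepin+EGF libraries overlapped.

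EGF raised EGR3 by a log2 difference of 3.35 in WT cells (SE 0.172, adjusted p = 0.000136) and 2.26 in AMPK KO cells (SE 0.172, adjusted p = 0.00411), by limma. The WT call held with each library left out (3.48 without the shallow WT DMSO replicate 3) and was lost when only the compared groups were fitted (adjusted p = 0.309 by limma). The AMPK KO call was lost without AMPK KO DMSO replicate 3 (adjusted p = 0.0526) and without AMPK KO DMSO+EGF replicate 2 or 3 (adjusted p = 0.0821 and 0.108), the log2 difference then being 2.20 to 2.36. The cordycepin effect on EGR3 was a log2 difference of -1.35 in WT cells (SE 0.172, limma adjusted p = 0.149) and 0.16 in AMPK KO cells (SE 0.172, 95% interval -0.23 to 0.55, adjusted p = 0.61). Voom on the recovered reads called the WT fall (-1.53, adjusted p = 0.000749), with 4.13% of all genes called. With cordycepin+EGF, EGR3 remained higher than with DMSO by 2.00 in WT cells (adjusted p = 0.0058) and 2.43 in AMPK KO cells (adjusted p = 0.00151), by limma. The WT call was lost without WT cordycepin+EGF replicate 2 or 3 (adjusted p = 0.0636 and 0.102).

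EGR2, also called KROX20 and required for Schwann cell myelination and hindbrain segments, was low in all libraries. EGR2 (ENSG00000122877) lies on chromosome 10, 62811996 to 62819167, minus strand. In WT cells it had 0.0634 and 0.0670 RPKM with DMSO, which is 4 and 1 reads, 1.43 RPKM in both DMSO+EGF libraries and 0.973 and 0.975 RPKM with cordycepin+EGF. AMPK KO cells had 0.0701 and 0.147 RPKM with DMSO (4 and 9 reads), 0.741 and 1.09 RPKM with DMSO+EGF, and 1.29 and 1.64 RPKM with cordycepin+EGF. Cordycepin+EGF thus lay below DMSO+EGF in WT cells and above it in AMPK KO cells, with no overlap in either line. How many of all genes did so was not counted.

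The EGF effect on EGR2 was a log2 difference of 1.75 in WT cells (SE 0.187, limma adjusted p = 0.0282) and 1.21 in AMPK KO cells (SE 0.187, adjusted p = 0.611). The pseudocount of 0.5 exceeds the DMSO level, so these values understate the change, and voom on the recovered reads gave 4.16 and 3.03. The WT call was lost without WT DMSO+EGF replicate 2 or 3 (adjusted p = 0.369 and 0.254) and without WT DMSO replicate 3 (adjusted p = 0.149), and with the replicate block within each line (adjusted p = 0.0575). Averaged over the lines the log2 difference was 1.48 (SE 0.132, adjusted p = 0.00637). That call was lost without WT DMSO+EGF replicate 2 or 3 (adjusted p = 0.0732 and 0.0616), AMPK KO DMSO replicate 2 (0.0629) and AMPK KO DMSO+EGF replicate 3 (0.0565). Cordycepin gave -0.35 in WT cells (SE 0.187, adjusted p = 0.371) and 0.51 in AMPK KO cells (SE 0.187, adjusted p = 0.169), so neither passed. With cordycepin+EGF, EGR2 was above DMSO by 1.72 in AMPK KO cells (limma adjusted p = 0.0147), a call that was lost with each of its 4 libraries left out (adjusted p of 0.0598 and 0.0857 without AMPK KO cordycepin+EGF replicate 3 or 2, and 0.13 and 0.133 without AMPK KO DMSO replicate 3 or 2). In WT cells the log2 difference was 1.39 (limma adjusted p = 0.051), so it did not pass, and it was 1.391 and 1.398 without WT DMSO replicate 2 or 3.

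EGR4, a family member known from brain and male germ cells, was near the limit of detection. EGR4 (ENSG00000135625) lies on chromosome 2, 73290929 to 73293701, minus strand, and its mean level was 0.230 RPKM. It had 0 reads in both WT DMSO libraries, 17 and 5 with DMSO+EGF, and 14 and 10 with cordycepin+EGF in WT cells. AMPK KO cells had 7 and 1 reads with DMSO, 9 and 17 with DMSO+EGF, and 15 and 20 with cordycepin+EGF. Reads were thus present in every stimulated library of both lines. Set against a floor of 3 reads over the WT DMSO group (0.06005 RPKM), the summed level in WT cells was 3.69 times this floor with DMSO+EGF and 3.75 times with cordycepin+EGF. The floor allows for counting error in the DMSO group only. The 22 and 24 summed reads with DMSO+EGF and cordycepin+EGF have counting error too, so these ratios are not lower bounds. The RPKM levels were 0.283 and 0.128 in WT DMSO+EGF and 0.205 and 0.263 in WT cordycepin+EGF, which overlapped. The AMPK KO levels were 0.192 and 0.0256 with DMSO, 0.274 and 0.519 with DMSO+EGF and 0.432 and 0.445 with cordycepin+EGF.

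EGR transcripts together went from 2.95 and 2.84 RPKM in WT DMSO to 239 and 218 RPKM in WT DMSO+EGF, and EGR1 made up 72.7% to 96.2% of this sum over the 12 libraries. The share of EGR1 was lower with cordycepin+EGF than with DMSO+EGF in every library of both lines, at 93.1% and 92.8% against 96.2% and 95.3% in WT cells and at 86.2% and 91.1% against 95.2% and 94.3% in AMPK KO cells. The order of levels over the groups also differed between members. For EGR1 it was WT DMSO+EGF, AMPK KO DMSO+EGF, AMPK KO cordycepin+EGF, WT cordycepin+EGF and then both DMSO groups, where the cordycepin+EGF groups overlapped and so did the DMSO groups. For EGR3 AMPK KO cordycepin+EGF stood second and overlapped AMPK KO DMSO+EGF. For EGR2 AMPK KO cordycepin+EGF stood first and overlapped WT DMSO+EGF.

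To put the members on 1 scale, the increment over DMSO with cordycepin+EGF was divided by the increment with DMSO+EGF, in upper-quartile scaled RPKM. The baseline was DMSO without cordycepin in both increments, as no group had cordycepin without EGF. In WT cells 23.8% ± 1.73 of the EGR1 increment was left (propagated SE, n = 2 libraries a group), 32.5% ± 3.16 of the EGR3 increment and 69.0% ± 0.911 of the EGR2 increment. The EGR2 SE in WT comes from replicates that agreed almost exactly, and it can be too small. Counting error was not added to it, at 221 summed reads with DMSO+EGF, 162 with cordycepin+EGF and 5 with DMSO. The AMPK KO values were 54.2% ± 12.5 for EGR1, 115% ± 10.6 for EGR3 and 173% ± 43.7 for EGR2. For each of the 3 genes a larger percentage was left in AMPK KO than in WT cells, and the ranges with 1 library left out did not overlap between the lines (22.5% to 25.3% against 41.6% to 66.7% for EGR1, 29.9% to 35.7% against 107% to 124% for EGR3). For EGR1 the increment with cordycepin+EGF was 50.5 in WT and 56.2 scaled RPKM in AMPK KO cells, against 212 and 104 with DMSO+EGF. The EGR1 percentages thus differed mainly through the DMSO+EGF increment. For EGR3 the same increments were 2.46 and 4.62 against 7.55 and 4.01, and for EGR2 0.921 and 1.4 against 1.33 and 0.805. EGR4 had too few reads for this ratio to separate the lines (117% ± 46.7 and 120% ± 51.4).

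The difference between the lines was also tested gene by gene, as the cordycepin effect in AMPK KO minus that in WT cells. On the log2 scale it was 1.51 for EGR3 (SE 0.244), 1.12 for EGR1 (SE 0.263) and 0.86 for EGR2 (SE 0.264). By limma 0 of the 5 passed (adjusted p = 0.122, 0.122 and 0.139), and 0.0% of all genes. At an unadjusted p under 0.05 there were 3 of 5 members and 21.4% of all genes. Voom on the recovered reads called EGR3 and EGR1 (adjusted p = 0.00988 and 0.0143), and 9.15% of all genes. NAB1 and NAB2 had 0.17 (95% interval -0.40 to 0.75) and 0.06 (95% interval -0.61 to 0.73). For the EGF effect the difference between the lines passed for 0 of 5 members and 0.0% of all genes by limma, and for 0 members and 0.0% of all genes by voom. At an unadjusted p under 0.05 there were 2 of 5, EGR3 (-1.09) and EGR1 (-0.88), against 8.69% of all genes.

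**Figure D4:**
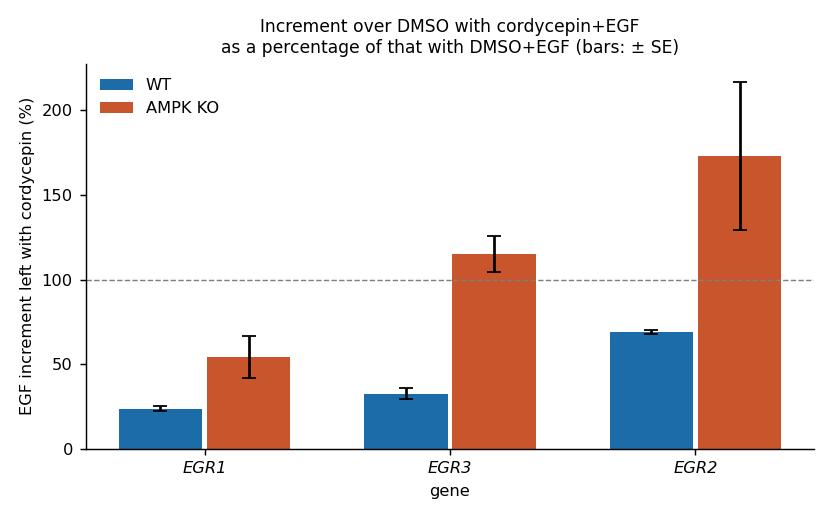
The increment over DMSO with cordycepin+EGF as a percentage of the increment with DMSO+EGF (vertical axis from 0, bars ± propagated SE, dashed line at 100%), for EGR1, EGR3 and EGR2 in WT and AMPK KO cells, each from 2 libraries a group. The WT bars stand at 23.8%, 32.5% and 69.0%, and the AMPK KO bars at 54.2%, 115% and 173%. Counting error was not added to the SE, and the WT EGR2 bar rests on 221 (DMSO+EGF), 162 (cordycepin+EGF) and 5 (DMSO) summed reads. For EGR1 the increment with cordycepin+EGF was 50.5 in WT and 56.2 scaled RPKM in AMPK KO cells.

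NAB2, the corepressor known as an EGR-induced feedback gene, was low and was not called in any comparison. NAB2 (ENSG00000166886) lies on chromosome 12, 57089043 to 57095476, plus strand. Its WT levels were 1.03 and 1.13 RPKM with DMSO, 2.08 and 1.49 RPKM with DMSO+EGF, and 1.64 and 1.48 RPKM with cordycepin+EGF. The AMPK KO levels were 1.70 and 1.95, 1.74 and 1.49, and 1.22 and 1.83 RPKM. Both WT DMSO libraries were below all other libraries, and among the other groups neighbours in the order of levels overlapped. The EGF effect was a log2 difference of 0.50 in WT cells (95% interval 0.03 to 0.98, limma adjusted p = 0.509) and -0.13 in AMPK KO cells (95% interval -0.60 to 0.35, adjusted p = 1). Cordycepin gave -0.10 (95% interval -0.58 to 0.37) and -0.05 (95% interval -0.52 to 0.43) on the log2 scale in WT and AMPK KO cells. Voom on the recovered reads gave 0.73 for EGF in WT cells (95% interval 0.04 to 1.42, adjusted p = 0.593).

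NAB1, the corepressor described as expressed in most tissues, was the more abundant NAB transcript, at 3.17 to 7.19 times the RPKM of NAB2 over the 12 libraries. NAB1 (ENSG00000138386) lies on chromosome 2, 190646746 to 190692766, plus strand. Its WT levels were 7.38 and 5.03 RPKM with DMSO, 6.87 and 7.44 RPKM with DMSO+EGF, and 5.19 and 6.16 RPKM with cordycepin+EGF. For AMPK KO they were 8.95 and 8.33, 9.69 and 9.99, and 7.95 and 9.87 RPKM. All 6 AMPK KO libraries were above all 6 WT libraries. How many of all genes were apart in this way was not counted. In the limma fit of all 12 libraries NAB1 was not called between the lines. The adjusted p was 0.204 with DMSO, 0.184 with DMSO+EGF and 0.247 with cordycepin+EGF. The EGF effect was 0.19 on the log2 scale in each line (95% intervals -0.22 to 0.59 in WT and -0.22 to 0.60 in AMPK KO cells). Cordycepin gave -0.27 (95% interval -0.68 to 0.14) and -0.10 (95% interval -0.51 to 0.31). As EGR1 moved and the NAB genes did not pass, the ratio of EGR1 to summed NAB RPKM went from 0.314 and 0.386 in WT DMSO to 25.7 and 23.2 in WT DMSO+EGF and 7.89 and 6.66 in WT cordycepin+EGF. The AMPK KO ratio was 0.224 and 0.211, then 9.31 in both libraries, then 4.80 and 5.98.

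Between the lines without EGF, 0 of 5 members were called by limma, against 0.44% of all genes, and 0 by voom, against 7.79%. At an unadjusted p under 0.05 there were 2 of 5, NAB2 (log2 difference 0.54, AMPK KO minus WT) and NAB1 (0.45), against 21.3% of all genes. With cordycepin+EGF 0 of 5 were called by limma, against 0.118% of all genes, and voom called 1, EGR3, against 1.53%. There, 3 of 5 had an unadjusted p under 0.05, against 13.7% of all genes: EGR3 (0.79), NAB1 (0.62) and EGR2 (0.42). EGR1 had 0.10 (95% interval -0.32 to 0.53) in that comparison.

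Annotated neighbours were examined because reads of overlapping genes can be assigned to either, and the strand setting of the counting was not given in the sources used here. EGR2 shares 145 exon bases with the noncoding gene ENSG00000289487 on its own strand, and EGR3 shares 164 with ENSG00000253125 on the opposite strand, neither of which was in the table. NAB2 shares 69 exon bases with STAT6 on the opposite strand (0.135 to 0.413 RPKM), and NAB1 shares 589 and 10 exon bases with the noncoding genes ENSG00000228509 and ENSG00000284052, which stayed at or under 0.316 RPKM. EGR1 and EGR4 share none. The noncoding gene ENSG00000289267 starts 801 bases upstream of EGR1 on the opposite strand. It had 0 and 0.721 RPKM in WT DMSO and 1.55 and 0.970 RPKM in WT DMSO+EGF, and was not called (log2 difference 1.13, limma adjusted p = 0.485).

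The nearest listed gene downstream of EGR3 moved differently from EGR3. ENSG00000261026, a noncoding gene on the same strand (chromosome 8, 22679013 to 22684009), begins 3650 bases past the end of EGR3. In WT cells it had 6 and 0 reads with DMSO, 93 and 70 with DMSO+EGF, and 110 and 103 with cordycepin+EGF. AMPK KO cells had 2 and 1 reads, 22 and 32 reads, and 212 and 170 reads. It was near 0 without EGF in both lines, and its highest counts were with cordycepin+EGF. As RPKM it had 0.734 and 0.852 in WT DMSO+EGF and 0.763 and 1.29 in WT cordycepin+EGF, which overlapped, and 0.318 and 0.464 against 2.90 and 1.80 in AMPK KO cells, which did not. Without the AMPK KO cordycepin+EGF libraries its mean would have been under the filter of 0.5 RPKM. The gene was thus tested only through the group in which it was highest, so its calls for cordycepin below give no separate support. The cordycepin effect by limma was a log2 difference of 0.24 (adjusted p = 0.631) in WT and 1.69 (SE 0.245, adjusted p = 0.0361) in AMPK KO cells, and the latter was called in 8 of 11 alternatives and in 1 of 4 fits with a library left out (adjusted p of 0.0489 to 0.236). Averaged over the lines it was 0.97 (adjusted p = 0.0409), called in 5 of 11 alternatives and in 1 of 8 fits with a library left out.

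Relative to EGR3 in the same library, the RPKM of ENSG00000261026 was 10.1% and 9.71% in WT DMSO+EGF and 7.27% and 9.62% in AMPK KO DMSO+EGF. With cordycepin+EGF it was 27.3% and 47.8% in WT and 54.2% and 37.9% in AMPK KO cells. All 4 libraries with cordycepin were thus above all 4 with DMSO+EGF, whereas EGR3 itself was lower with cordycepin in WT and overlapping in AMPK KO cells. This ratio was looked at after the values had been seen and was not tested.

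**Figure D5:**
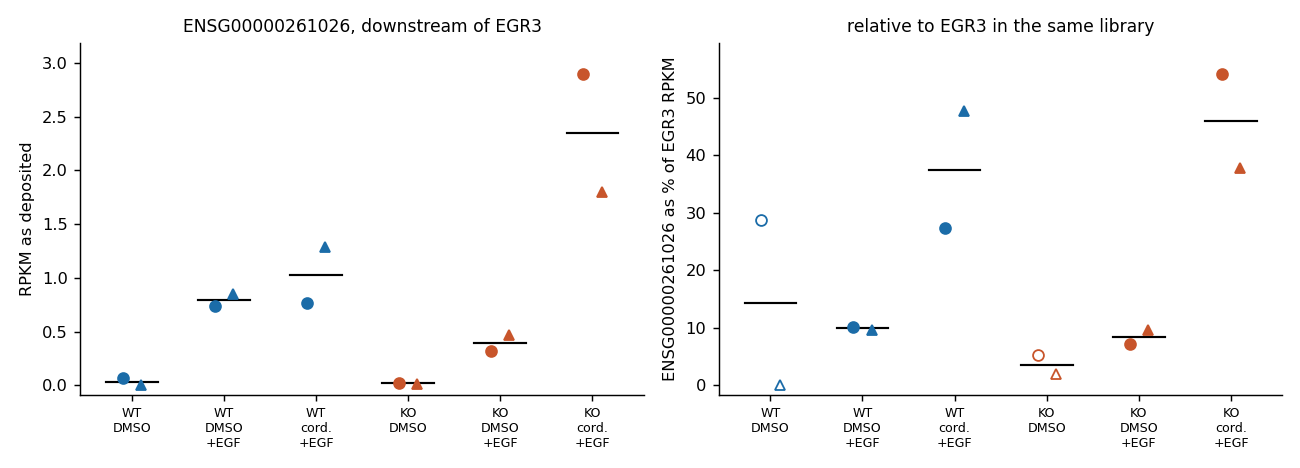
RPKM of ENSG00000261026, the listed gene downstream of EGR3, in each library (left) and the same as a percentage of EGR3 RPKM in that library (right), by group, with the mean of the 2 replicates as a line (circle, replicate 2; triangle, replicate 3; open points, DMSO libraries with at most 6 reads). The 4 cordycepin+EGF libraries stand at 27.3% to 54.2% and the 4 DMSO+EGF libraries at 7.27% to 10.1%.

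The genes most like EGR1 over the 12 libraries were searched among 18784 with a mean of at least 1 RPKM, a limit that leaves out EGR2 and EGR4. Pearson r of log2(scaled RPKM + 0.5) was 0.975 for FOS and 0.96 for FOSB (AP-1 subunits), 0.971 for EGR3, 0.889 for CCN1 (a matrix protein) and 0.85 for the noncoding gene ENSG00000225761. These correlations share libraries and are given as descriptions. FOS differed from EGR1 in AMPK KO cells, with means of 5.98 RPKM for DMSO+EGF and 8.27 RPKM for cordycepin+EGF, where EGR1 had 106.7 and 57.0 RPKM. The genes most like NAB2 were CSNK1G2 (0.893), FAM89B (0.887) and BTBD2 (0.877).

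Reported EGR target genes, growth factors, matrix and adhesion genes among them, were followed at the same time point. Of 25 genes listed as reported targets, 22 were in the table and 17 were tested. In WT cells 0 of 17 were called for EGF, with 13 higher and 4 lower (median log2 difference 0.18), and 0 of 17 for cordycepin, with 3 higher and 14 lower (median -0.27). In AMPK KO cells 0 of 17 were called for EGF (13 higher, 4 lower, median 0.11) and 0 of 17 for cordycepin (12 higher, 5 lower, median 0.13). At an unadjusted p under 0.05 there were 2 for EGF and 7 for cordycepin in WT cells, against 9.72% and 16.0% of all genes. The AMPK KO counts were 1 and 3, against 2.42% and 21.8% of all genes. Voom called 1 and 3 of the targets in WT (0.0282% and 4.13% of all genes) and 0 and 0 in AMPK KO cells (0.0188% and 6.34%).

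The 1 target called by limma in any comparison was ARC, a synaptic immediate early gene. ARC was put on the list with earlier results of these data on it known. It had 1.87 ± 0.768 RPKM (SD, n = 2) in WT DMSO, 12.1 ± 1.12 in WT DMSO+EGF and 1.47 ± 0.491 in WT cordycepin+EGF, against 0.949 ± 0.206, 2.09 ± 0.254 and 1.32 ± 0.479 RPKM in AMPK KO cells. Its WT DMSO+EGF level was the highest and did not overlap the other groups. ARC was called for the cordycepin effect averaged over the lines (log2 difference -1.58, SE 0.207, limma adjusted p = 0.0183) and for AMPK KO against WT with DMSO+EGF (-2.27, SE 0.293, adjusted p = 0.0177). With a library left out the first call was lost in 6 of 8 fits and the second in 4 of 4 (adjusted p of up to 0.0855 and 0.209). The largest other changes among targets in WT cells were of SYN1, a synaptic vesicle gene (-0.54 for EGF and 0.98 for cordycepin). Among AMPK KO cells F3 (tissue factor) had 0.42 for EGF and MMP14, a matrix protease, had 0.64 for cordycepin. SYN1, F3 and MMP14 did not pass in these comparisons.

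The subunits of NuRD, the repressor complex that NAB2 recruits, were all listed and tested. Of 13 subunits 0 were called by limma for EGF or cordycepin in either line. At an unadjusted p under 0.05 there were 2 and 0 for EGF and 2 and 4 for cordycepin in WT and AMPK KO cells, and voom called 1, for cordycepin in WT cells, against the shares of all genes given for the targets. With DMSO+EGF 1 of 13, MTA1, was lower in AMPK KO than in WT cells (log2 difference -0.72, SE 0.134, limma adjusted p = 0.0422), a call lost in 4 of 4 fits with a library left out (adjusted p of 0.171 to 0.29). MTA1 had 0.52 for EGF in WT cells, -0.59 for cordycepin in WT cells and 0.44 for cordycepin in AMPK KO cells, none of which passed. The next largest changes were of CHD4 (0.46 for EGF in WT), MBD2 (0.36 for EGF in AMPK KO), RBBP7 (-0.44 for cordycepin in WT) and RBBP4 (-0.42 for cordycepin in AMPK KO cells).

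The route from the EGF receptor to the EGR1 promoter was listed as 25 genes, of which 24 were tested. Of these, 0 were called by limma in any of the 13 comparisons. The number with an unadjusted p under 0.05 was 2 and 0 for EGF and 4 and 5 for cordycepin, in WT and AMPK KO cells, and voom called 0 and 0, and 2 and 1. These counts stand against the same shares of all genes as those of the targets, 16.0% and 21.8% for cordycepin at an unadjusted p under 0.05, and 4.13% and 6.34% by voom. EGFR, the receptor itself, had the largest change, with a log2 difference of -1.13 for cordycepin in WT cells (SE 0.393, adjusted p = 0.274) and 0.78 in AMPK KO cells (SE 0.393, adjusted p = 0.284). Median log2 differences of the route were 0.01 and 0.06 for EGF and -0.02 and -0.19 for cordycepin in WT and AMPK KO cells.

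Other zinc finger factors that bind GC-rich sites like those of EGR1 (WT1, SP1, SP2, SP3, SP4, ZNF148, MAZ and VEZF1) were all tested, and 0 of 8 were called by limma in any comparison. Voom called 2 for cordycepin in AMPK KO cells, against 6.34% of all genes. SP1 was the most abundant of them, at 41.2 ± 1.69 RPKM (SD, n = 2) in WT DMSO+EGF, and SP4 and SP1 had the largest changes with cordycepin in AMPK KO cells (-0.55 and -0.49, neither passing). Per length, EGR1 was below SP1 in both DMSO groups and above it in both DMSO+EGF groups.

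The 6 genes also differ in structure. The EGR genes are compact, with spans of 2773 bases (EGR4), 3825 (EGR1), 5822 (EGR3) and 7172 (EGR2), of which 51.7% to 86.4% is exon. NAB2 spans 6434 bases (44.5% exon) and NAB1 46021 bases (10.6% exon).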

How the data were processed

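RNA of 12 libraries (6 groups of 2) was measured. The authors mapped reads to GRCh38.p13, used Rsubread to count by gene, and deposited the table as RPKM, that is, scaled to gene length and library size. The annotation release and the strand setting of the counting were not given in the sources used here. Of 26058 genes listed, 26029 matched GENCODE 44, and RPKM multiplied by exon length gave whole reads (within 0.05) for 96.3% of genes. The 2 lines with no gene name were dropped. Depth was 3806335 to 25104904 recovered reads, so that values of EGR2 and EGR4 without EGF rest on few reads.

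RPKM was scaled by upper quartile, genes with a mean under 0.5 RPKM were left out (22067 kept), and log2(value + 0.5) was fitted with limma 3.58.1 in R 4.3.3 (12 libraries in 1 fit, 6 groups, trended moderation, 13 comparisons, Benjamini-Hochberg adjustment within each). Comparisons share libraries. With 2 libraries against 2 an exact permutation test cannot go below p = 0.333 and was not used. Scripts were tested on simulated data. Alternatives were other pseudocounts, filters, scalings and moderation, fits of the compared groups alone, replicate blocks, voom on recovered reads, and leaving out each library. Voom without a filter was added after the data had been seen.

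The members and gene lists were chosen with earlier results of these data known. Named genes were the 6 members, their overlapping and nearest listed genes, the 5 genes most like EGR1 and the 3 most like NAB2, and from each list the genes called, the 2 with the largest change in each EGF and cordycepin comparison, and those needed to state a count. Of these, genes whose values bear on no result are not described, and 1 gene named by the rule is not reported here. Lists covered reported EGR targets, NuRD subunits, the route from EGF receptor to EGR1 promoter, zinc finger factors of GC-rich sites, and markers of HEK293 and other cell types. Among markers, COL1A1 was the 1 called (AMPK KO against WT with DMSO+EGF). Promoter sequences were taken from RefSeq (GRCh38.p14).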

Additional observations from a re-analysis of the deposited data

Results flagged for a closer look

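The EGR2 libraries lay on opposite sides of DMSO+EGF with cordycepin in the lines, although neither line's difference was called. In WT cells both cordycepin+EGF libraries (0.973 and 0.975 RPKM) were below both DMSO+EGF libraries (1.43 RPKM in each), and in AMPK KO cells both (1.29 and 1.64 RPKM) were above (0.741 and 1.09 RPKM). The cordycepin effect in AMPK KO minus that in WT cells was 0.86 on the log2 scale (SE 0.264), which missed the threshold (adjusted p = 0.139 by limma and 0.0553 by voom). For this difference 21.4% of all genes had an unadjusted p under 0.05 by limma, EGR2 among them, and voom called 9.15%. How many of all genes lay on opposite sides without overlap was not counted, so the pattern cannot be called particular to EGR2.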

How the results depend on the processing

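Directions of the members' log2 differences did not reverse for any called value under the alternatives run. EGR1 induction by EGF in both lines, its fall with cordycepin averaged over the lines and EGR3 induction averaged over the lines were called in every fit. The number of 5 members called (in brackets, in the report) changed as follows. With only the compared groups fitted it was 1 for EGF in WT (3 in the report), 1 for EGF in AMPK KO (2), 2 for EGF averaged (3), 0 for cordycepin in WT (1), 1 for the cordycepin difference between lines (0), 1 for cordycepin+EGF against DMSO in WT (2) and 1 in AMPK KO (3), and 3 for AMPK KO against WT with DMSO+EGF (1). Of all 22067 genes this setting called 1128 for the cordycepin difference between lines (0) and 2215 for AMPK KO against WT with DMSO+EGF (383). In its other comparisons named here it called 0 to 3 of all genes. With a pseudocount of 0.1 the number of members called was 0 for cordycepin in WT. With a pseudocount of 1 it was 2 for cordycepin averaged over the lines, where 245 of all genes were called. Without the trend the number of members was 0 for cordycepin in WT, 2 for cordycepin averaged and 0 for AMPK KO against WT with DMSO+EGF. Of all genes 303 were called for cordycepin averaged in that fit. Voom, with or without a filter, gave 2 for cordycepin in WT, 1 in AMPK KO, 2 averaged, 2 for the difference between lines, 2 for AMPK KO against WT with DMSO+EGF and 1 with cordycepin+EGF, and in these comparisons it called 326 to 2340 of 21245 genes with the filter. Cordycepin+EGF against DMSO in WT gave 3 (2) with voom, no filter, a pseudocount of 0.1 or no trend. There 194 of all genes were called by voom with the filter, 12 with no filter, 43 with the pseudocount of 0.1 and 44 with no trend. A filter at a mean of 1 RPKM, which leaves out EGR2, gave 2 for EGF in WT, EGF averaged and cordycepin+EGF against DMSO in AMPK KO (3 each). The cause of these changes was not tested.

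Replicate numbers did not pair the libraries over all groups, as correlations of replicate differences between groups ran from -0.122 to 0.322. Among the WT groups they were 0.136 to 0.314, so that pairing within WT is possible. With the replicate block 0 members were called for cordycepin in WT and 0 for AMPK KO against WT with DMSO+EGF, and with the block within each line 0 for the latter and 2 for EGF in WT (EGR2, limma adjusted p = 0.0575). Of all 22067 genes these fits called 0, 311, 231 and 3, in the same order.

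Leaving out 1 library, the count was 0 in each fit for cordycepin in WT and for AMPK KO against WT with DMSO+EGF, 1 to 2 for EGF in AMPK KO, 0 to 1 for cordycepin in AMPK KO, and 1 to 3 for cordycepin+EGF against DMSO in WT. The increment left ranged from 142 to 222% for EGR2 in AMPK KO, and for EGR4 from 84.5 to 189% in WT and 83.8 to 209% in AMPK KO. For EGR2 in WT it was 66.8% with RPKM as deposited, against 69.0%. With all 12 libraries kept, the number of all genes called ran from 1 to 6 for EGF in WT and from 1 to 4 in AMPK KO cells. For cordycepin it ran from 0 to 1064 in WT, 0 to 1472 in AMPK KO and 0 to 2097 for the difference between lines. The highest cordycepin counts each came from voom without a filter.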
